A study of Mus musculus with 32 samples.

Results

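The brains of mice carrying human APOE4 were compared with those of mice carrying human APOE3 when both genotypes had received the peptide D4F. The comparison used 16 of the 32 RNA sequencing libraries of the study, chosen by their labels: 8 from E4/4 mice and 8 from E3/3 mice, each with 4 F (female) and 4 M (male) animals. Both groups carry a human APOE allele on both chromosomes in place of mouse Apoe, APOE4 in E4/4 and APOE3 in E3/3. Both received D4F every day for 12 weeks, from 10.5 to 13.2 months of age, so D4F is common to the groups and the labels separate them by allele. The other 16 libraries came from mice of the same genotypes, sexes and ages given PBS (phosphate-buffered saline, the vehicle). The labels name brain tissue without a region, and each library is 1 mouse. All E4/4 libraries carry lower library numbers than all E3/3 libraries, so whatever went with that number cannot be told apart from genotype.

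APOE is the main lipid carrier that astrocytes release in brain, and it hands cholesterol to neurons and other cells through lipoprotein receptors on their surface. ABCA1 loads lipid onto APOE particles, and the APOE4 form is known for poorer lipid loading and for a raised risk of Alzheimer's disease. D4F is a peptide of D-amino acids that mimics the lipid-binding helices of apolipoprotein A-I, the main protein of high-density lipoprotein.

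The 16 libraries held 17.8 to 41.0 M (mega) counts, and 2 of each genotype lay under 26 M. Levels are given as CPM, counts per M after TMM scaling, and fold changes on a log2 scale as E4/4 over E3/3. They were averaged over F and M unless a sex is named. Mouse Apoe, the replaced gene (chromosome 7 in GRCm38), lay between 0.957 and 3.15 CPM in all 16 libraries and did not pass between genotypes (log2 0.05, SE 0.172, edgeR adjusted p = 0.937). Its counts do not show which human allele a library carries. Brain markers were abundant: Snap25 of the synapse lay between 2107 and 4055 CPM, and Mbp of myelin between 2132 and 3254 CPM. The 4 E3/3 M libraries were less alike than the others, with a mean correlation to the rest of their group of 0.974, against 0.987 to 0.989 in the other 3 groups.

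A single gene passed an adjusted p of 0.05. It was Dynlt1b, which encodes a light chain of the dynein motor, and it was higher in E4/4. That is 1 of 20298 genes tested (0.00493%), with none lower. At an unadjusted p under 0.05 there were 2801 genes (13.8%), 1325 higher and 1476 lower, and 73 genes had an adjusted p under 0.1 (0.36%), 34 higher and 39 lower. Differences were small, with a median absolute log2 change of 0.116 over all genes. Among the 73 genes, 21 exceeded 1.5-fold and 14 exceeded 2-fold. Their sign was the same in F and M for all 73, which follows in part from choosing them on the mean of both sexes.

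Dynlt1b lies on chromosome 17 (6430112 to 6436296, plus strand, GRCm38) in a cluster of copied genes, between Tmem181a and Dynlt1f. In E3/3 D4F its level was lowest at 1.56, with a median of 2.12 and a highest value of 2.72 CPM. In E4/4 D4F it was lowest at 2.77, with a median of 3.84 and a highest value of 4.93 CPM. These levels rest on 33 to 91 counts per library in E3/3 D4F and 62 to 193 in E4/4 D4F. Every E4/4 library was above every E3/3 library, in F and in M. Such separation was seen in 41 of the 20298 genes (0.202%), 26 higher (0.128%) and 15 lower (0.0739%). The means were 2.10 ± 0.403 CPM in E3/3 D4F and 3.92 ± 0.668 CPM in E4/4 D4F (SD, n = 8 each). E4/4 was 1.86-fold higher, with a log2 change of 0.90, an SE of 0.155 and an adjusted p of 0.0489 in edgeR. The log2 change was 0.99 in F and 0.80 in M. The p lies just under the threshold, and leaving out 1 library at a time gave edgeR adjusted p-values from 0.0187 to 0.143. The gene still passed without F replicate 2 or M replicate 2 or 4 of E3/3 D4F, and without F or M replicate 4 of E4/4 D4F. It did not pass without any 1 of the other 11 libraries.

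The coding sequence shows how far the copies can be told apart. The first 60 coding bases, from position 1 at the start codon, are printed for the 4 copies, from GENCODE M21 transcripts on GRCm38, with the only base that differs within the 342 coding bases in capitals.
Dynlt1b: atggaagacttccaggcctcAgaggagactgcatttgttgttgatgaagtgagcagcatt
Dynlt1a: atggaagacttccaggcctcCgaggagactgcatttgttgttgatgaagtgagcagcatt
Dynlt1c: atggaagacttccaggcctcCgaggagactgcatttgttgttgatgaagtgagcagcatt
Dynlt1f: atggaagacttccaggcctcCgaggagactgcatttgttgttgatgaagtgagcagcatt

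The change from Dynlt1a to Dynlt1b is C21A, at the third base of its codon, and the coding bases of Dynlt1a, Dynlt1c and Dynlt1f are the same. Most of the whole transcript is also shared within the cluster. Of the 622 windows of 150 bases, the read length, in the Dynlt1b transcript of 771 bases, 501 (80.5%) also occur in a transcript of another gene of the cluster. How the authors counted reads with several matches is not stated, so the separate values of these copies are uncertain.

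The other copies did not pass, and their libraries overlapped. Dynlt1a ranged from 4.53 to 9.45 CPM in E3/3 D4F and from 6.76 to 10.1 CPM in E4/4 D4F (log2 0.00, SE 0.114). Dynlt1c gave a log2 of 0.09 (SE 0.21) and Dynlt1f 0.31 (SE 0.226). The 4 copies together reached 9.41 to 15.3 CPM in E3/3 D4F and 14.1 to 18.1 CPM in E4/4 D4F, and Dynlt1b made up 10.2 to 20.4% and 17.5 to 29.5% of that sum. Next to Dynlt1b lies Tmem181b-ps, an annotated pseudogene, with 3.31 to 8.20 CPM in E3/3 D4F and 7.56 to 13.2 CPM in E4/4 D4F. Its log2 change was 0.63 (unadjusted p = 0.00175, edgeR adjusted p = 0.142). A further pseudogene of the cluster, Tmem181c-ps, gave a log2 of 1.95 (unadjusted p = 7.66e-05, edgeR adjusted p = 0.0698) at levels under 2.1 CPM. Tmem181a, their intact relative, gave −0.08 (SE 0.0673). Of the 8 genes tested in the cluster, the pseudogene Gm2808 had a value of similar size on the other side, at −0.68 (SE 0.396, unadjusted p = 0.0967), with −1.11 in F and −0.25 in M.

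**Figure D1:**
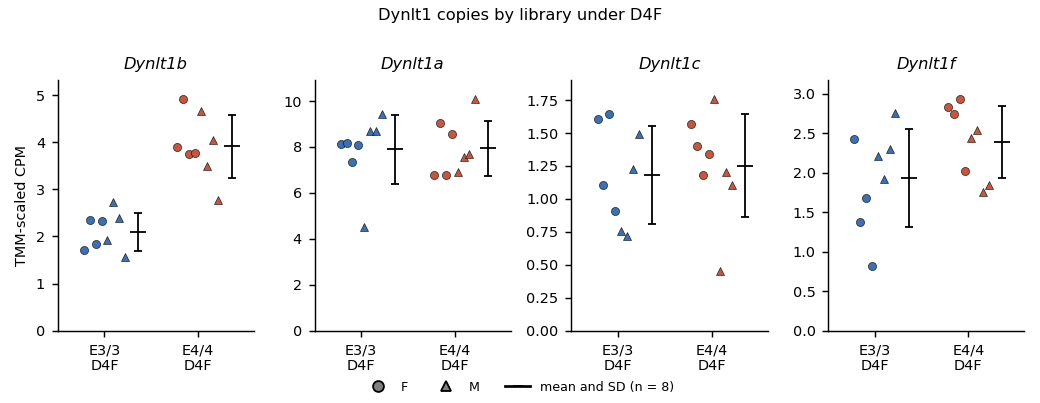
TMM-scaled CPM of the 4 Dynlt1 copies in each D4F library (circles F, triangles M), with mean and SD of 8 libraries. The Dynlt1b libraries of E4/4 lie at 2.77 CPM and above and those of E3/3 at 2.72 CPM and below, while the ranges of Dynlt1a, Dynlt1c and Dynlt1f overlap.

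The genes next in order of p had adjusted p-values of 0.0535 and did not pass. Among those with higher values in E4/4, Ctso, a lysosomal cysteine protease (chromosome 3), lay between 27.2 and 34.5 CPM in E3/3 D4F, with a median of 30.5, and between 35.6 and 42.4 CPM in E4/4 D4F, with a median of 36.9. All E4/4 libraries were above all E3/3 libraries (log2 0.30, SE 0.0573, edgeR adjusted p = 0.0535).

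Aqp4, the water channel of astrocyte endfeet (chromosome 18), also separated the groups, with 59.9 to 78.8 CPM (median 68.8) in E3/3 D4F and 80.2 to 109 CPM (median 90.2) in E4/4 D4F. Its log2 change was 0.42 (SE 0.0837, edgeR adjusted p = 0.0535), 0.35 in F and 0.48 in M. Smpdl3a, a phosphodiesterase related to acid sphingomyelinase (chromosome 10), had 18.6 to 22.3 CPM in E3/3 D4F and 23.1 to 25.99 CPM in E4/4 D4F (log2 0.27, SE 0.0551, edgeR adjusted p = 0.0535). Its libraries did not overlap either. Barhl2, a homeobox factor of retina and diencephalon (chromosome 5), was nearly absent: it lay at 0 to 0.199 CPM in E3/3 D4F and at 0.195 to 1.51 CPM in E4/4 D4F. Its log2 change of 2.64 (SE 0.533, edgeR adjusted p = 0.0535) rests on few counts.

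Of the genes with lower values in E4/4, Dapk3 had the lowest p. This kinase of cell death and contractility (chromosome 10) had 25.98 to 33.2 CPM (median 30.7) in E3/3 D4F and 23.6 to 26.5 CPM (median 25.5) in E4/4 D4F. A single E3/3 library lay inside the E4/4 range (log2 −0.26, SE 0.0478, edgeR adjusted p = 0.0535). With GC and length trends removed, Dapk3 gave −0.11 (edgeR adjusted p = 0.424). Cdk5r2, a neuronal activator of the kinase CDK5 (chromosome 1), had 171 to 265 CPM in E3/3 D4F and 130 to 185 CPM in E4/4 D4F. Its log2 change was −0.42 (SE 0.0833), −0.63 in F and −0.22 in M, and the ranges overlapped. It gave −0.27 with GC and length trends removed.

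Itpk1, an inositol phosphate kinase (chromosome 12), gave a log2 of −0.22 (SE 0.0435), with overlapping ranges of 66.7 to 80.2 CPM in E3/3 D4F and 60.1 to 71.3 CPM in E4/4 D4F. Nfkbib, an inhibitor of NF-kappa-B (chromosome 7), did separate the groups, with 19.7 to 29.5 CPM in E3/3 D4F and 13.1 to 19.4 CPM in E4/4 D4F (log2 −0.41, SE 0.0842). So did Galnt15, an enzyme of mucin-type glycosylation (chromosome 14), with 8.36 to 12.9 CPM in E3/3 D4F and 5.61 to 8.28 CPM in E4/4 D4F (log2 −0.70, SE 0.142). Both had an edgeR adjusted p of 0.0535.

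**Figure D2:**
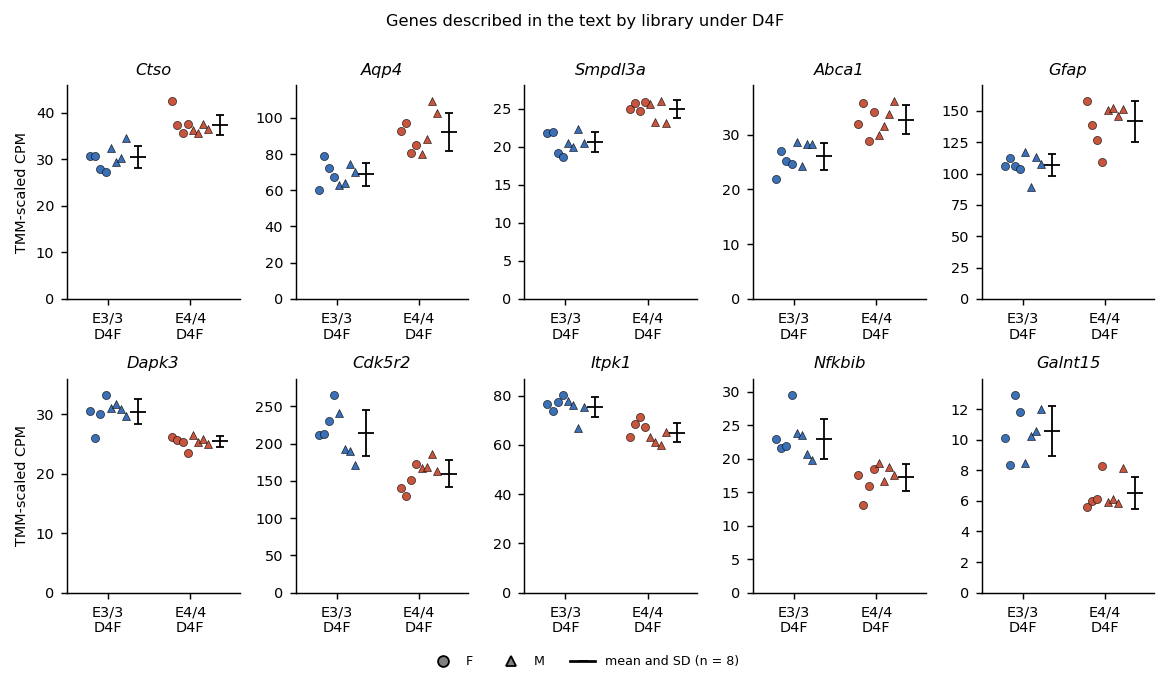
TMM-scaled CPM of 10 genes in each D4F library (circles F, triangles M), with mean and SD of 8 libraries. Ctso, Aqp4, Smpdl3a, Abca1, Nfkbib and Galnt15 separate the genotypes without overlap, and none of the 10 passed an adjusted p of 0.05 in the main edgeR fit.

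No gene of APOE's own pathway passed in the main edgeR fit. In every one of the 39 gene lists described here, 0 members passed an adjusted p of 0.05 (background 0.00493%), so each list is given by its members at an unadjusted p under 0.05 (background 6.53% higher and 7.27% lower) and by its median log2 change (−0.00 over all genes). Abca1 was the nearest of the lipid exporters to the threshold. It had 21.9 to 28.6 CPM (median 26.1) in E3/3 D4F and 28.8 to 36.1 CPM (median 32.8) in E4/4 D4F. The groups did not overlap (log2 0.33, SE 0.0778, edgeR adjusted p = 0.0796). Abcg1, which also exports cholesterol, gave −0.01 (SE 0.059), and the 12 ABC transporters had 2 members higher and 3 lower at the unadjusted level, with a median of −0.02.

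Among 20 APOE receptors and their partners, 3 were higher and 0 lower at an unadjusted p under 0.05. The ligand Reln, which signals through the receptors VLDLR and APOER2, had 46.4 to 62.2 CPM in E3/3 D4F and 54.9 to 80.1 CPM in E4/4 D4F (log2 0.32, edgeR adjusted p = 0.0959). The receptor Lrp1 gave −0.10, and Vldlr gave 0.29 (unadjusted p = 0.00482). Of 17 apolipoproteins and lipoprotein enzymes, 4 were higher and 1 lower, led by Lcat, which esterifies cholesterol on lipoproteins (0.34, edgeR adjusted p = 0.176). Lcat gave 0.04 in F and 0.65 in M. Clu, the other abundant apolipoprotein of astrocytes, gave 0.12 (SE 0.0675).

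Cholesterol synthesis had 4 of 28 genes lower and 0 higher, with a median of −0.05, and its lowest p was that of Fdft1, the squalene synthase (−0.15, unadjusted p = 0.0237). Fatty acid genes went the other way, with 10 of 33 higher and 3 lower and a median of 0.08. The first were Hadhb, a subunit of the mitochondrial trifunctional protein (0.25, edgeR adjusted p = 0.0705), and Cpt2, which takes part in moving fatty acids into mitochondria (0.36, unadjusted p = 0.00078). Of 42 genes of sphingolipid and ganglioside turnover, 2 were higher and 5 lower. B4galnt1, a ganglioside synthase, gave −0.22 (edgeR adjusted p = 0.162). Glycolysis had 6 of 30 lower and 0 higher, led by the glucose transporter Slc2a1 (−0.23, edgeR adjusted p = 0.157).

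Astrocyte markers had higher values in E4/4, and all 27 gave a log2 change above 0, where 49.8% of all tested genes did. At an unadjusted p under 0.05, 11 were higher and 0 lower, and the median was 0.12, with 0.08 in F and 0.23 in M. In F their summed level had means of 9720 CPM in E3/3 D4F and 9837 CPM in E4/4 D4F. In M the means were 8679 and 10163 CPM. By exact permutation over both sexes, p was 0.0331 for the sum, or 0.137 adjusted over 15 marker sums. Besides Aqp4, the astrocyte markers included Slc1a3, the glutamate transporter GLAST, with 319 to 499 CPM in E3/3 D4F and 504 to 554 CPM in E4/4 D4F. Slc1a3 did not overlap between groups (log2 0.32, SE 0.0805, edgeR adjusted p = 0.103). Gfap, the filament protein of reactive astrocytes, had 88.9 to 117 CPM in E3/3 D4F and 109 to 158 CPM in E4/4 D4F (log2 0.40, SE 0.134, edgeR adjusted p = 0.19). A single E4/4 library lay inside the E3/3 range. In bulk tissue, more cells of a type and more RNA per cell cannot be told apart.

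Microglia and complement genes had 8 of 33 members higher and 0 lower at an unadjusted p under 0.05, with a median of 0.16. They held homeostatic genes such as the receptors Cx3cr1 (0.24, unadjusted p = 0.00224) and P2ry12 (0.26, unadjusted p = 0.00938), and also Spp1 and Clec7a, known from disease-associated microglia. Spp1 had 4.61 to 12.4 CPM in E3/3 D4F and 11.5 to 24.5 CPM in E4/4 D4F (log2 0.70, SE 0.2, edgeR adjusted p = 0.139). The ranges overlapped, with 6 of the 8 E4/4 libraries above every E3/3 library. Trem2 (0.01) and Aif1 (−0.00) were level between genotypes, each with an edgeR adjusted p above 0.9 (0.972 and 0.999).

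Oligodendrocyte precursor markers had 6 of 19 higher and 0 lower, led by the phosphatase Ptprz1 (0.30, edgeR adjusted p = 0.111). Of 32 myelin genes, 0 were higher and 0 lower at the unadjusted level, with a median of 0.00, and Mbp gave 0.01 (SE 0.0842). Mural cell and fibroblast markers had 6 of 28 higher and 0 lower, with a median of 0.28. The matrix gene Dcn, made by fibroblasts, had 4.55 to 9.44 CPM in E3/3 D4F and 9.63 to 18.4 CPM in E4/4 D4F. Its groups did not overlap (log2 0.81, SE 0.221, edgeR adjusted p = 0.128).

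Presynaptic genes lay on the lower side. Of 35 genes of synaptic vesicles and release, 14 were lower and 2 higher at an unadjusted p under 0.05, and the median was −0.15, with −0.28 in F and −0.05 in M. Sncb, a synuclein of nerve terminals, had 313 to 482 CPM (median 380) in E3/3 D4F and 229 to 344 CPM (median 308) in E4/4 D4F. Its ranges overlapped (log2 −0.39, SE 0.0997, edgeR adjusted p = 0.111), and it gave −0.61 in F and −0.18 in M. Rab3a, a GTPase of vesicle docking, gave −0.27 (unadjusted p = 0.000556) and the vesicle protein Syp −0.23 (unadjusted p = 0.00281). Syn1 gave −0.30 (edgeR adjusted p = 0.224) and Snap25 −0.32 (edgeR adjusted p = 0.308). Postsynaptic genes had 6 of 35 lower and 2 higher, led by the NMDA receptor subunit Grin1 (−0.24, edgeR adjusted p = 0.18).

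Cortical and hippocampal excitatory neuron markers had 7 of 24 lower and 0 higher, with a median of −0.17, with −0.38 in F and −0.08 in M. Their first member was Neurod2, a transcription factor of cortical neurons (−0.58, edgeR adjusted p = 0.168), followed by the vesicular glutamate transporter Slc17a7 (−0.45, unadjusted p = 0.00378). Among 47 potassium channel genes, 8 were lower and 3 higher.

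Olfactory bulb markers had higher values in E4/4 in every member, while the sums of the other regional lists given here overlapped widely. All 20 olfactory bulb markers had a log2 change above 0, with a median of 1.03, and 12 were higher at an unadjusted p under 0.05. Their summed level ran from 592 to 1142 CPM (median 957) in E3/3 D4F and from 1141 to 1570 CPM (median 1362) in E4/4 D4F. The groups met only at 1 library each. By exact permutation over both sexes, p was 0.000311 for this sum, or 0.00466 adjusted over 15 marker sums. In a sum of CPM the abundant members weigh most, and Reln and Calb2 of this list also stand in other lists. The sum had means of 924 CPM in E3/3 D4F and 1349 CPM in E4/4 D4F. Those of Eomes were 1.45 and 6.11 CPM, of Doc2g 4.82 and 10.4 CPM and of Th 6.15 and 15.9 CPM, so these add little to it. Trh, a neuropeptide of olfactory bulb and hypothalamus, had 1.86 to 5.35 CPM in E3/3 D4F and 5.14 to 15.5 CPM in E4/4 D4F (log2 1.66, SE 0.391, edgeR adjusted p = 0.0925). The hypothalamic list had 11 of 22 higher and 0 lower at the unadjusted level, with 6 members below 0 and a median of 1.21. Its summed level overlapped widely, at 191 to 513 CPM in E3/3 D4F and 200.3 to 395 CPM in E4/4 D4F, with means of 301 and 331 CPM. All 20 olfactory bulb genes had counts in these libraries, and of the 29 hypothalamic genes Kiss1 was at 0. Avp, which encodes vasopressin, varied widely between libraries. It lay at 0.0299 to 0.931 CPM in E3/3 D4F and at 0.122 to 12.9 CPM in E4/4 D4F. Of the 19 striatal markers, 18 had a log2 change above 0 and 0 reached an unadjusted p under 0.05. Their median was 0.35, with 0.74 in F and −0.01 in M, and their summed level overlapped at 1499 to 4644 CPM in E3/3 D4F and 1430 to 5118 CPM in E4/4 D4F. Thalamic and cerebellar markers had 4 of 20 higher and 0 lower, with a median of 0.11, led by the vesicular glutamate transporter Slc17a6 (0.67). Their summed level was 756 to 1068 CPM (mean 897) in E3/3 D4F and 834 to 973 CPM (mean 899) in E4/4 D4F.

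The excitatory neuron marker sum ran from 4767 to 7737 CPM in E3/3 D4F and from 3913 to 6252 CPM in E4/4 D4F. With the olfactory bulb sum as a covariate, a setting added after seeing the data, Dynlt1b gave a log2 of 0.77 (edgeR adjusted p = 0.172) and 0 genes passed. In the same setting the presynaptic median was −0.01 in place of −0.15, the excitatory neuron median −0.02 in place of −0.17, the microglia median 0.04 in place of 0.16 and the mural and fibroblast median −0.15 in place of 0.28. The astrocyte median was 0.12 in both, while Gfap gave 0.08 in place of 0.40 and Aqp4 0.28 in place of 0.42. Snap25 turned to 0.03 from −0.32, Syn1 gave −0.15, Grin1 −0.15, Slc17a7 −0.21 and Neurod2 −0.25. Spp1 gave 0.28 in place of 0.70, Dcn 0.37 in place of 0.81 and Lcat 0.22 in place of 0.34. Abca1 (0.30), Ctso (0.27), Syp (−0.21) and Dapk3 (−0.29) lay nearer to their values without the covariate. The marker sum itself differs with genotype, so what it takes up and what genotype gives cannot be told apart. The sum also follows the abundant members of its list more than the others, and Eomes, Doc2g and Th add little to it. Shifts with this covariate therefore do not measure olfactory bulb content alone. Choroid plexus markers were high in a few libraries of both genotypes, and their sum had medians of 336 CPM in E3/3 D4F and 384 CPM in E4/4 D4F, with highest values of 1892 and 1388 CPM. Their median log2 change was 1.96 in F and −0.80 in M.

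The summed level of haemoglobin genes was lower in E4/4. Hba-a1 had 4.09 to 17.6 CPM (median 10.4) in E3/3 D4F and 0.588 to 11.8 CPM (median 1.15) in E4/4 D4F, giving −2.43 on the log2 scale (SE 0.507, edgeR adjusted p = 0.0698), with −3.88 in F and −0.98 in M. The sum of 4 haemoglobin genes, whose copies share reads, was 12.6 to 61.2 CPM (median 34.7) in E3/3 D4F and 2.197 to 42.7 CPM (median 5.18) in E4/4 D4F. By exact permutation over all regroupings (two-sided, 8 against 8), p was 0.00466 for this sum, or 0.0326 adjusted over 7 library measures. In 7 of the 8 E4/4 libraries the sum was under the lowest E3/3 value. Alas2, the haem synthesis enzyme of red cell precursors, gave −2.21 (unadjusted p = 0.000107).

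**Figure D3:**
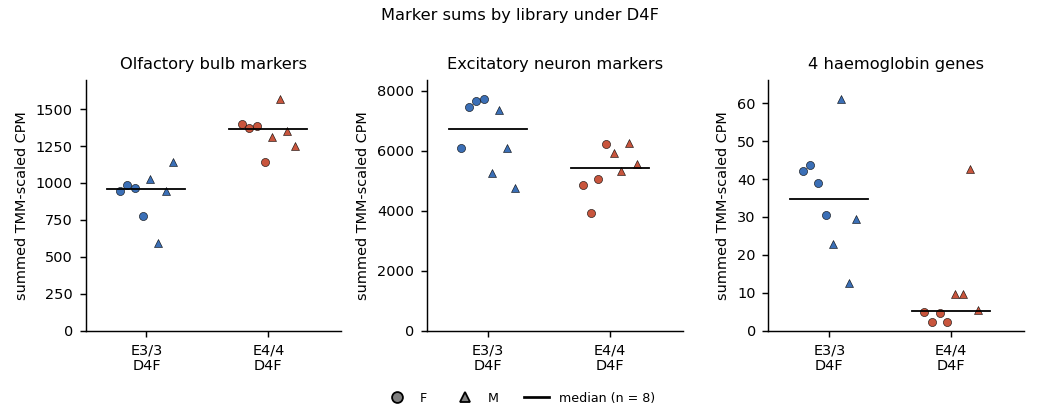
Summed TMM-scaled CPM of olfactory bulb markers, of cortical and hippocampal excitatory neuron markers and of 4 haemoglobin genes in each D4F library (circles F, triangles M), with the median of 8 libraries as a line. The olfactory bulb medians are 957 CPM in E3/3 and 1362 CPM in E4/4, and 1 E4/4 M library stands alone at 42.7 CPM of haemoglobin.

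The libraries also differed in their slope of log counts on the GC content of genes, with medians of 0.00341 log2 units per percent GC in E3/3 D4F and −0.00582 in E4/4 D4F. By exact permutation, p was 0.0134 for the slope, or 0.0468 adjusted over the 7 measures. Total counts did not pass (p = 0.513 in the exact permutation test). Across genes, the log2 change correlated with GC content at −0.157, a description in which genes are not independent. With GC and length trends removed, 0 genes passed and Dynlt1b gave a log2 of 0.87 (edgeR adjusted p = 0.0593). Other genes moved further: B4galnt1 gave −0.12 in place of −0.22, Mark4 −0.11 in place of −0.21 and Ppp1r37 −0.14 in place of −0.22.

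Genes near the replaced Apoe locus on chromosome 7 had lower values in E4/4. Within 2 Mb of Apoe, 17 of 52 tested genes (32.7%) had an unadjusted p under 0.05, 15 of them lower, against 13.7% on other chromosomes. The share was 37.3% from 2 to 5 Mb, 26.5% from 5 to 10 Mb, 21.6% from 10 to 20 Mb and 15.4% beyond 20 Mb. The median log2 change was −0.083 within 2 Mb and −0.029 beyond 20 Mb on chromosome 7. With GC and length trends removed, these medians were −0.037 and −0.036. The longest transcripts of genes near Apoe are GC-rich, with a median GC content of 57.5% against 49.2% on other chromosomes, and with GC and length trends removed the shares within 2 Mb and on other chromosomes were 19.2% and 12.7%. Members were Ppp1r37, a phosphatase subunit (−0.22, edgeR adjusted p = 0.162), Mark4, a kinase that phosphorylates tau (−0.21, unadjusted p = 0.00352), and Tomm40, a pore of mitochondrial import (−0.16, unadjusted p = 0.0069). Genes carried with the edited allele cannot be told apart here from effects of APOE itself.

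More genes had a low p in F than in M, but no gene was shown to differ between the sexes. In F, 0 genes passed (3144 at an unadjusted p under 0.05, 15.5%), and 79 (0.389%) had an adjusted p under 0.1. Without F replicate 4 of E4/4 D4F, 83 genes passed in F. In M, 0 passed, with 930 (4.58%) at the unadjusted level. DESeq2 called 324 genes in F and 0 in M. The test of M minus F gave 0 genes, with 1134 (5.59%) at the unadjusted level and 0 by DESeq2. The median absolute log2 change was 0.173 in F and 0.112 in M.

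The lowest p in F was that of Cdk5r2, followed by Zfp771, a zinc finger gene (−0.82), and Fam171a2, a membrane protein gene (−0.50), each with an edgeR adjusted p of 0.0845. Over both sexes these last genes both gave −0.33, and with GC and length trends removed −0.09 and −0.15. In M, Ndn, an imprinted gene of neurons on chromosome 7, was among the first (−1.14). Its 4 E3/3 M libraries lay between 174 and 340 CPM, and the 8 E4/4 libraries of both sexes between 86.9 and 126 CPM. Over both sexes Ndn gave −0.80 (SE 0.177, edgeR adjusted p = 0.0705), and 2 of the E3/3 F libraries lay inside the E4/4 range.

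The genotype difference in PBS mice served as a point of reference, and it shares no library with the difference under D4F. There, 4137 genes passed (20.4%), with 2007 higher (9.89%) and 2130 lower (10.5%) in E4/4. Depth was uneven there, with 6 of 8 E3/3 and 1 of 8 E4/4 libraries under 26 M counts, and with depth class (under or over 26 M) in the model 1286 genes passed. Of the 4137, 3689 (89.2%) had the same sign under D4F, where 70.0% of all genes did. In all, 1253 of the 4137 genes (30.3%) also had an unadjusted p under 0.05 under D4F with the same sign, which is 44.7% of the 2801 such genes, and 4 had the opposite sign. All 73 genes with an adjusted p under 0.1 under D4F had the same sign in PBS, and 54 of them passed there (74.0%). The PBS and D4F differences came from the same fit, with a shared estimate of the spread. Both also carry the split of library numbers by genotype, so these overlaps do not come from independent tests.

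For the genes that PBS picked out, the median size was smaller under D4F. Along the direction seen in PBS, the median log2 change of the 4137 genes was 0.32 in PBS and 0.11 under D4F, and choosing genes by 1 set of libraries favours larger values in that set. The presynaptic median was −0.26 in PBS and −0.15 under D4F. Across genes, the log2 change correlated with GC content at −0.306 in PBS and −0.157 under D4F, again only a description. Mean GC slopes in PBS were 0.0121 log2 units per percent GC in E3/3 and −0.00649 in E4/4. Under D4F they were 0.00139 and −0.00698. What part of the smaller size under D4F goes with GC content was not tested. The direct test of D4F minus PBS called 0 genes (smallest adjusted p 0.257), with 2113 (10.4%) at an unadjusted p under 0.05, and DESeq2 called 12.

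Abca1 gave 0.66 in PBS and 0.33 under D4F, a difference of −0.32 (SE 0.11, unadjusted p = 0.00625, edgeR adjusted p = 0.298). B4galnt1 gave −0.60 and −0.22, a difference of 0.37 (unadjusted p = 0.00049, edgeR adjusted p = 0.257). The smallest p-values of this test were those of Ctnnal1, a catenin relative (0.37 in PBS, 0.01 under D4F), Pno1, a ribosome assembly factor (0.36 and −0.11), and Scara3, a scavenger receptor (−0.31 and 0.10), each with an edgeR adjusted p of 0.257. For Dynlt1b the value was 0.56 in PBS (edgeR adjusted p = 0.0109) and 0.90 under D4F, and the difference did not pass (unadjusted p = 0.134).

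**Figure D4:**
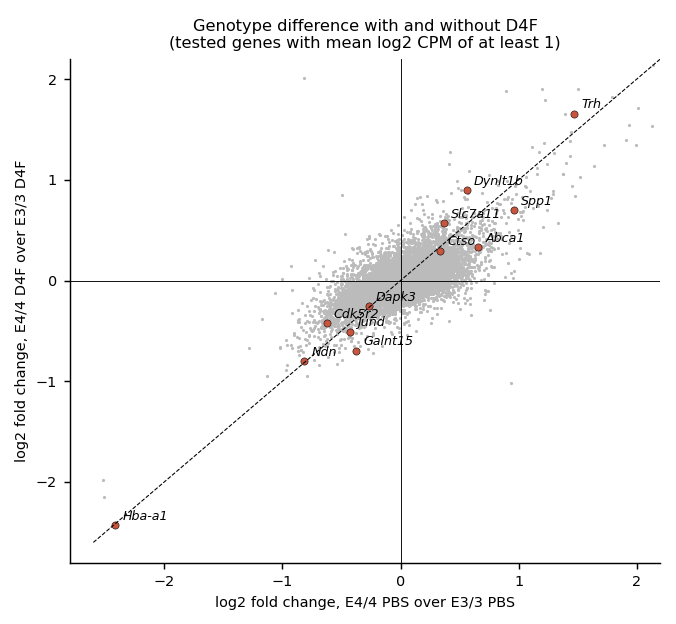
Log2 fold change of E4/4 over E3/3 in PBS mice (horizontal) and under D4F (vertical) for the 14164 genes whose mean log2 CPM reached 1, of which 10 lie outside the axes. The dashed line marks equal values, with Dynlt1b (0.56 and 0.90) above it and Abca1 (0.66 and 0.33) below it.

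Lists differed in how the PBS and D4F medians compared. The excitatory neuron median was −0.31 in PBS and −0.17 under D4F, and the olfactory bulb median was 1.44 and 1.03. Myelin genes had a median of 0.16 in PBS, where 12 of 32 passed and were higher, and of 0.00 under D4F. Astrocyte genes had a median of 0.02 in PBS, with 3 members higher and 4 lower past the threshold, and of 0.12 under D4F. Slc1a3 gave −0.125 in PBS and 0.32 under D4F, a difference of 0.45 that did not pass (SE 0.114, unadjusted p = 0.000455, edgeR adjusted p = 0.257). The differences between list medians were not tested.

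**Figure D5:**
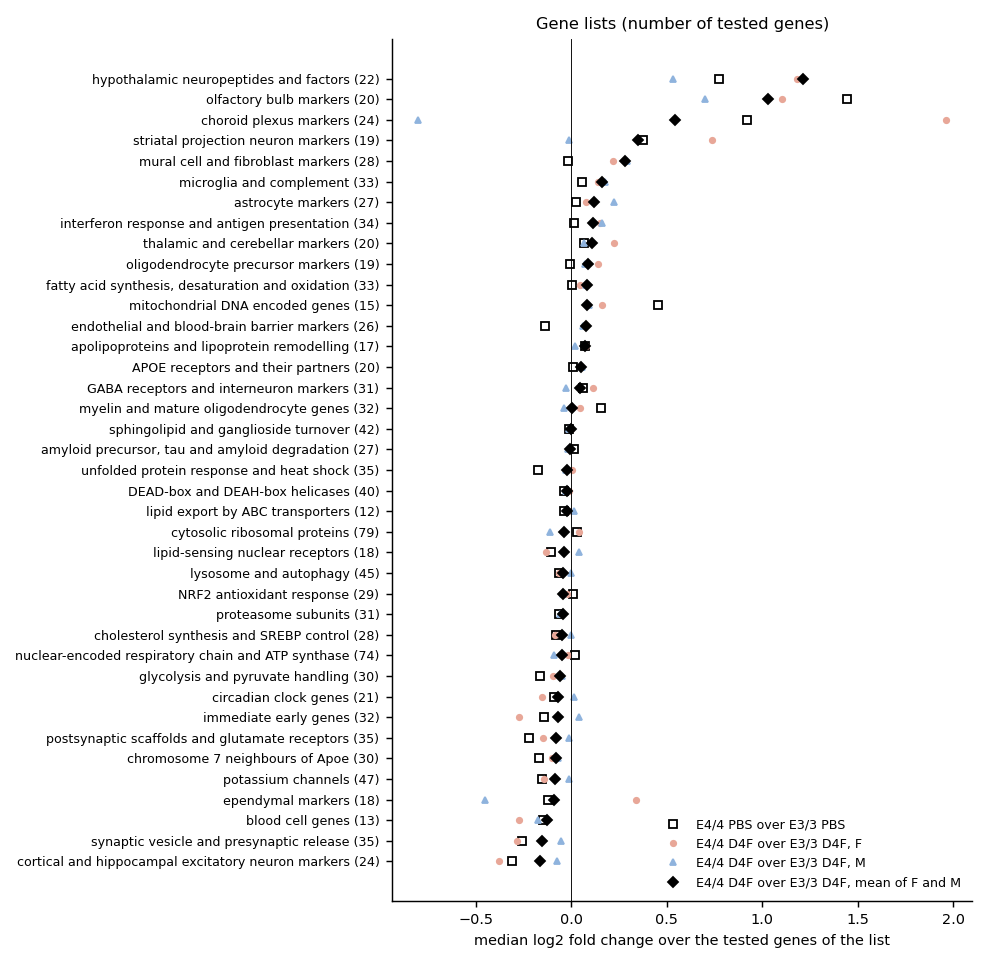
Median log2 fold change of E4/4 over E3/3 for 39 gene lists (tested genes in parentheses), under D4F as the mean of both sexes (diamonds), in F (circles) and in M (triangles), and in PBS (open squares). The hypothalamic and olfactory bulb lists are highest at 1.21 and 1.03 under D4F and the excitatory neuron list is lowest at −0.17.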

How the data were processed

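The deposited values are raw read counts for each gene. The authors used Trimmomatic, HISAT2, featureCounts and the build GRCm38, per the submitters' processing notes. Their versions, the annotation, the strand setting and the handling of reads with several matches were not given in the sources used here. Columns were matched to the labels by library name, and no other column of values was present. Coordinates, lengths and GC content came from GENCODE M21, matched by symbol (94.6% of tested genes had a GC value).

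All 32 libraries entered 1 model in edgeR 4.0.16 (R 4.3.3) with 1 coefficient for each of 8 groups of 4. Genes were kept by filterByExpr (minimum count 10, minimum total 15), which left 20298 of 57010 genes. Counts were scaled by TMM and tested with the quasi-likelihood F test with robust settings. P-values were two-sided, adjusted by Benjamini and Hochberg over all tested genes, and a gene passed at an adjusted p below 0.05. They measure the spread between mice. SE denotes the model's standard error on the log2 scale. Library measures were compared by exact permutation. The model was also run on counts simulated from its own mean levels and spread. Those counts held no GC slope or tissue difference between libraries, so that run cannot show how the model handles these.

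Alternatives included DESeq2 1.42.0, limma 3.58.1, other filters and scalings, depth, GC content, blocks and single libraries left out. Named genes were the 5 with the smallest p each way, the member of each list with the smallest p, 12 fixed genes and 3 genes for each contrast by sex and for D4F minus PBS. Further list members, the Dynlt1 cluster and the distances from Apoe were added after their values were seen. The comparison, the 39 lists (1109 symbols tested) and the alternatives were chosen with earlier results of these data known.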

Additional observations from a re-analysis of the deposited data

Results flagged for a closer look

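In the 8 libraries of a group, a highest or lowest value was marked when its gap to the next library, divided by the group's whole range, exceeded Dixon's 95% critical value. Of 146 sets of 8 values examined for the named genes and the library measures, 16 were marked, and chance marks about 1 in 20. Values are in CPM unless a unit is given.

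In E4/4 D4F, Ctso stood at 42.43 in F replicate 1, where the next library had 37.63. M replicate 2 stood high for Lcat (25.1, next 17.49) and for Spp1 (24.53, next 17.4). Slc2a1 reached 125 in M replicate 4 (next 102.2) and Kcnn1 17.48 in M replicate 1 (next 14.92). M replicate 3 had the most Hba-a1 (11.79, next 3.165) and the largest sum of 4 haemoglobin genes (42.69, next 9.777). F replicate 2 was lowest for Ppp1r37 (137.5, next 160.6) and for the GC slope (−0.01592 log2 units per percent GC, next −0.008801).

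In E3/3 D4F, F replicate 4 was highest for Nfkbib (29.51, next 23.81), B4galnt1 (186.6, next 155.6) and Ppp1r37 (248.7, next 206.8). M replicate 1 was highest for Psmc5, a proteasome subunit (217.6, next 186.4), for Pno1 (24.56, next 18.73) and for the percentage of counts in mitochondrially encoded genes (10.65%, next 8.012%). Adam17, a sheddase that cleaves the amyloid precursor, reached 21.67 in F replicate 1 (next 19.12). The part of single libraries in the other gene results is given by the values without each library.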

How the results depend on the processing

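The count of 1 gene depends on the settings. It was 0 with DESeq2 size factors, limma-voom, libraries over 26 M counts, GC and length trends removed, no robust settings, the low-correlation pair of E3/3 M libraries (replicates 1 and 2) left out, the highest choroid plexus library of each genotype left out, or the olfactory bulb sum as a covariate, the last 4 of these chosen after seeing the data. It was 2 without a filter or with libraries thinned to the smallest total, 12 with a filter of at least 1 CPM in 4 libraries, 58 with the 16 D4F libraries alone, 45 with sex as an additive term, 27 with depth class, 198 with DESeq2 and 73 at an adjusted p under 0.1, also chosen then. Leaving out 1 library gave 0 to 15: 15 without F replicate 2 and 5 without M replicate 4 of E3/3 D4F, 8 without F replicate 4 of E4/4 D4F, 1 without 3 others (not Dynlt1b without M replicate 1 of E4/4 D4F) and 0 without the remaining 10. In F the count was 324 with DESeq2, 1 without a filter, 53 with depth class, and 0 to 83 with 1 library left out. D4F minus PBS gave 12 with DESeq2, and the PBS count was 1286 with depth class. The count at an unadjusted p under 0.05 was 1775 without the low-correlation pair. Of 18 settings other than single libraries left out, Dynlt1b passed in 10, Cdk5r2 in 7 and Ctso, Nfkbib and Galnt15 in 6 each. Abca1 passed in 3 and Reln in 1.

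Replicate numbers did not pair the samples (same-number correlations from −0.13 to 0.28). With the replicate block 2 genes passed, and 6 with depth class added.

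A reversal was counted only where a gene changed sign and passed in the main fit or in that setting. Over 34 settings, 0 of the 101 genes followed did so. Few genes passed in most settings, so this count says little about the sign of the others. Snap25, for example, changed sign with the olfactory bulb sum as a covariate (−0.32 to 0.03). The GC slope difference was −0.00478 over all genes (p = 0.0615, exact permutation). With 1 library left out, the E4/4 minus E3/3 difference ran from 0.263 to 0.955 for the percentage in the 10 highest genes, from 0.335 to 1.04 for mitochondrially encoded genes and from 0.00534 to 0.00806 for the mean correlation within a group. The causes were not tested. Barhl2 rested on 0 to 6 counts per library in E3/3 D4F and on 7 to 60 in E4/4 D4F.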

Other observations

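No member of the further gene groups described here passed an adjusted p of 0.05 in edgeR. Antioxidant genes that NRF2 controls had 6 of 29 members higher and 1 lower at an unadjusted p under 0.05. Slc7a11, the cystine importer, had 17.99 to 32.9 CPM in E3/3 D4F and 31.9 to 46.3 CPM in E4/4 D4F (log2 0.57, edgeR adjusted p = 0.128), and Nqo1, a quinone reductase, gave 0.33 (unadjusted p = 0.00907). With the olfactory bulb sum as a covariate they gave 0.33 and 0.11. Interferon and antigen presentation genes had 5 of 34 higher and 1 lower. Endothelial genes were divided, with 4 of 26 higher and 4 lower, from the membrane protein gene Itm2a (0.32, edgeR adjusted p = 0.135) to Slc2a1 (−0.23), and Itm2a gave 0.19 with that covariate.

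Lysosome and autophagy genes had 6 of 45 lower and 1 higher, with Nagpa, which uncovers the mannose 6-phosphate tag, first (−0.23, edgeR adjusted p = 0.176), although Ctso lay on the higher side. The unfolded protein list had 4 of 35 lower and 0 higher, led by the chaperone Hspa1a (−0.42, edgeR adjusted p = 0.165). Of 74 nuclear genes of the respiratory chain, 5 were lower and 0 higher, and of 79 cytosolic ribosomal protein genes 1 was lower and 0 higher. The mitochondrially encoded mt-Co3 gave 0.54 (edgeR adjusted p = 0.25), or 0.30 with that covariate. Immediate early genes had 1 of 32 lower, Jund, with 36.8 to 72.7 CPM in E3/3 D4F and 29.6 to 48.7 CPM in E4/4 D4F (log2 −0.51, edgeR adjusted p = 0.0923). With GC and length trends removed, Jund gave −0.28 and Nagpa −0.12. The circadian list had 0 members at the unadjusted level in either direction.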
